A study of Mus musculus with 18 samples.

Results

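The 10 genes described here, Dcn, Lum, Bgn, Fbln1, Postn, Sparc, Pdgfra, Pdgfrb, Acta2 and Tagln, are commonly used markers of mesenchyme and of pericytes. They were chosen by symbol, and all 10 were found among the 23228 genes of the expression table. Expression was measured by RNA sequencing in 2 mouse tissues of the ICR strain. For the first sample, neural tubes of 2.3Ptf1a-GFP embryos at E12.5 were dissociated with trypsin and their GFP-positive cells were sorted. In these embryos GFP is driven from the beta-globin basal promoter by a 2.3 kb enhancer of Ptf1a, so the sort follows the activity of that enhancer and not of every Ptf1a-expressing cell. The second sample was whole, unsorted E15.5 pancreas, and both samples are labelled wild type apart from the transgene. Each tissue is represented by 1 value per gene, although 2 libraries were named for each, so no spread between replicates can be given and no test was made.

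Mesenchyme is the loosely packed supporting tissue that surrounds developing epithelia, and pericytes are contractile cells that wrap small blood vessels. Mesenchymal cells lay down a matrix of collagen fibrils whose assembly is regulated by small leucine-rich proteoglycans and by matricellular glycoproteins. Platelet-derived growth factor (PDGF) receptors mark mesenchymal cells and pericytes and control their growth and recruitment to vessels. Smooth muscle actin and its partner proteins appear in contractile and activated mesenchymal cells. In the embryonic pancreas, mesenchyme surrounds the branching epithelium and supports its growth. The dorsal neural tube is an epithelium that has no fibroblasts of its own but is invaded by vessels with pericytes.

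Values are in FPKM, fragments scaled to transcript length and to the mapped total, so that levels of different genes can be set side by side. A difference is the value of log2(FPKM + 1) in sorted cells less that in pancreas, and for genes of low level it comes out too small. The rule for calling a gene higher in a sample asked for 4 times or more on this scale, which is 2 in log2, and for 5 FPKM or more there. This is a rule of size and not a test. Ptf1a, the transcription factor studied in both tissues, was at 22.5 FPKM in neural tube and 37.1 FPKM in pancreas. The neural genes Sox2 and Tubb3 stood at 88.8 and 869 FPKM in neural tube against 0.0773 and 8.51 FPKM in pancreas, and the acinar enzyme gene Cpa1 at 0.0275 FPKM in neural tube against 4213 FPKM in pancreas. Judged by the lowest steps between values, a single fragment of a 1 kb transcript was worth about 0.0422 FPKM in neural tube and 0.0237 FPKM in pancreas, a depth about 1.78 times greater in pancreas.

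As deposited, all 10 markers were lower in the sorted neural tube cells than in whole pancreas, Fbln1 only without rescaling to equal totals, and by very different amounts. Of the 10, 0 were called higher in neural tube and 6 in pancreas, namely Dcn, Lum, Bgn, Postn, Sparc and Acta2. Among all 10744 genes that reached 5 FPKM in at least 1 sample, 10.3% were called higher in neural tube and 11.9% higher in pancreas. Of all these calls 53.6% were toward pancreas, or 33.2% with equal totals and 41.2% with equal totals without the 50 highest genes of each sample. The median difference of the 10 markers was -2.93, and that of the 10744 genes was -0.003. All 10 markers reached 5 FPKM in pancreas, while 4 did so in neural tube, Sparc, Fbln1, Acta2 and Tagln. None was listed at 0 in either sample. Their summed level was 60.8 FPKM in neural tube and 880 FPKM in pancreas, or 0.0133% and 0.125% of all FPKM. In bulk RNA a smaller number of cells of a type and less RNA per cell cannot be told apart. Tissue, stage, sorting, RNA extraction and the library preparations named all differed between the same samples. Their effects on these values cannot be told apart.

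**Figure D1:**
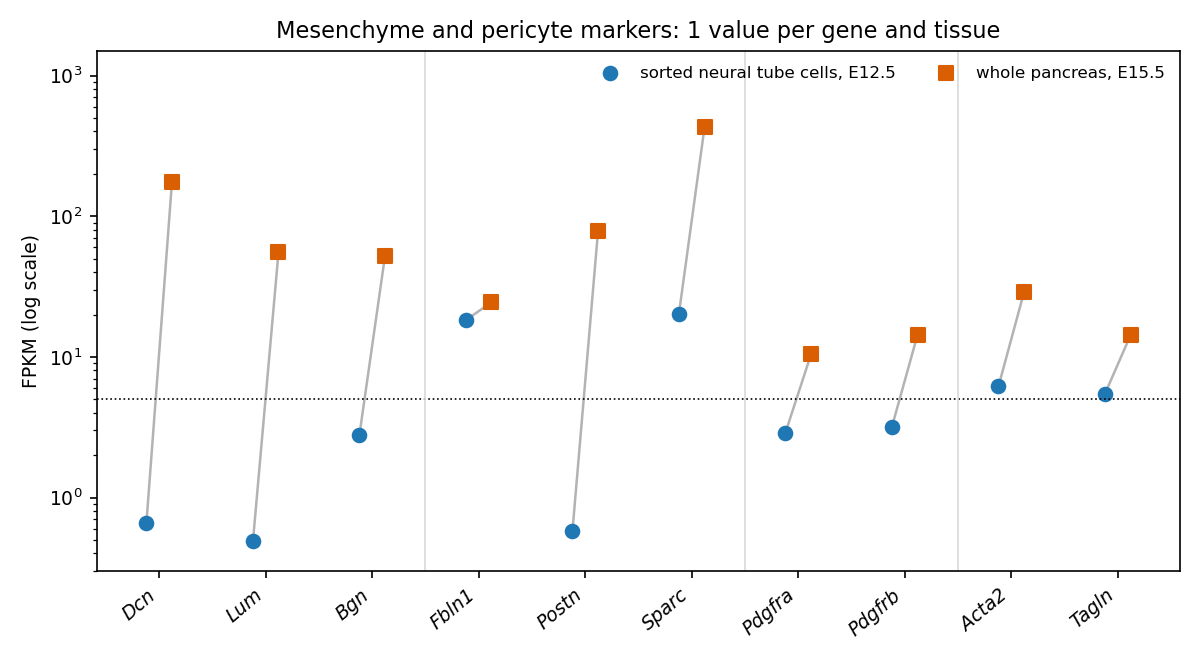
FPKM of the 10 markers on a log axis, with circles for sorted E12.5 neural tube cells and squares for whole E15.5 pancreas, joined for each gene. The dotted line is at 5 FPKM. Dcn, Lum and Postn lie below 1 FPKM in neural tube and above 50 FPKM in pancreas, while the pair of values for Fbln1 nearly coincides.

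The order of levels was not the same in both samples. In neural tube Sparc and Fbln1 led, at 20.3 and 18.2 FPKM, followed by Acta2, Tagln, Pdgfrb, Pdgfra and Bgn, with Dcn, Postn and Lum last. In pancreas Sparc led at 428 FPKM, followed by Dcn, Postn, Lum, Bgn, Acta2, Fbln1, Pdgfrb, Tagln and Pdgfra. Without replicates it cannot be said which neighbours in either order differ beyond their spread. Sparc and Fbln1 together made up 63.4% of the summed marker level in neural tube, and Sparc alone made up 48.6% of it in pancreas. The neural tube value, as a percent of the pancreas value of the same gene, ran from 0.378% for Dcn to 74.6% for Fbln1. The matrix genes other than Fbln1 held the low end of this scale, at or below 5.36%, and the receptors and contractile genes lay between 21.4% and 38.3%.

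RefSeq promoter sequences (GRCm38.p6) were found for 6 of the 10 genes: Acta2, Bgn, Fbln1, Pdgfra, Postn and Sparc. No entry was found for Dcn, Lum, Pdgfrb and Tagln. The 250 bases before the annotated start are given for 3 of them, because they represent the contractile, matricellular and proteoglycan groups and hold different short motifs. They are written 5′ to 3′ on the strand of the gene, with the motifs in capitals. The Acta2 stretch is chr19:34255374-34255623 on the minus strand, the Postn stretch is chr3:54360857-54361106 on the plus strand before the second of its annotated starts, and the Bgn stretch is chrX:73483351-73483600 on the plus strand.
Acta2: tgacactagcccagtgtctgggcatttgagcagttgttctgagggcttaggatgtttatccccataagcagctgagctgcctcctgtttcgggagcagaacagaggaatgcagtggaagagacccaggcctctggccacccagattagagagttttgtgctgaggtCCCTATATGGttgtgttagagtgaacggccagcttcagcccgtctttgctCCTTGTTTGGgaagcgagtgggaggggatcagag
Postn: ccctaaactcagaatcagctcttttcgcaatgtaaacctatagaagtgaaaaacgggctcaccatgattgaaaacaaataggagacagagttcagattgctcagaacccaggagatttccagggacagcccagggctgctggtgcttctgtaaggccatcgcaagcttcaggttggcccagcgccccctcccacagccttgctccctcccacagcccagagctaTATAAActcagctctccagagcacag
Bgn: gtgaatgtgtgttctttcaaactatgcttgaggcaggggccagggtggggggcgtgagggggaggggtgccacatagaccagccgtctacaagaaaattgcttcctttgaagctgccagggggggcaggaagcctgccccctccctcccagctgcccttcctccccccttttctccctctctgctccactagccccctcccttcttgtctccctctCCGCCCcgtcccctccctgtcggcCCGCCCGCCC
Both strands were searched for the CArG box, the motif bound by serum response factor, and for TATAAA and GGGCGG, and the matches of different motifs did not overlap. An exact CArG box was in none of the 8 windows of the 6 genes and in 1.47% of all 32851 promoter windows. With 1 of its inner 6 letters left free, Acta2 held it at 84 to 75 and at 34 to 25 bases before the annotated start, and 8.59% of all windows held at least 1. TATAAA stood 26 to 21 bases before the second start of Postn, against 12.4% of all windows with this motif. Bgn held GGGCGG in 3 places on the opposite strand, the last pair overlapping, so that it reads CCGCCC above, and 32.7% of all windows held it. Fbln1 held 1 GGGCGG before its second start, while Sparc and Pdgfra held none of these motifs. A match describes the letters and is no evidence of binding.

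The 3 proteoglycan genes were all called higher in pancreas. Dcn encodes decorin, which binds collagen fibrils and limits their width, and lies on chromosome 10 at 96942245 to 96980777 (NCBIM37, the build also called mm9). Dcn was at 0.660 FPKM in neural tube and 175 FPKM in pancreas, a difference of -6.73. Of the 10744 genes, 0.661% had a difference as low or lower. Dcn was thus the marker with the largest difference, and it ranked 12915th of all genes in neural tube against 485th in pancreas. Lum encodes lumican, a keratan sulfate proteoglycan, and lies on chromosome 10 at 97028135 to 97035337, 47357 bases from Dcn. Lum was at 0.487 FPKM in neural tube and 55.2 FPKM in pancreas, a difference of -5.24. For this gene, which has 1 annotated transcript, these values correspond to roughly 24 and 4830 fragments. The level of Dcn was 1.36 times that of Lum in neural tube and 3.17 times in pancreas. Bgn encodes biglycan, a close relative of decorin, and lies on chromosome X at 70728941 to 70741272. Bgn was at 2.79 FPKM in neural tube and 52.1 FPKM in pancreas, a difference of -3.81. It was nearly as abundant as Lum in pancreas but the highest of the 3 in neural tube.

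Of 14 other genes of this proteoglycan family, 0 met the rule toward neural tube and 3 toward pancreas, and those 3 reached 5 FPKM in pancreas alone. The other 11 genes did not reach 5 FPKM in either tissue. Counts of this and the following lists are over all genes listed, whether or not they reached 5 FPKM, and among all 23228 genes measured, 4.76% were called higher in neural tube and 5.5% higher in pancreas. Ogn, which encodes osteoglycin, was listed at 0 in neural tube and at 22.01 FPKM in pancreas. Aspn, which encodes asporin, was listed at 0 in neural tube and at 11.4 FPKM in pancreas, and Fmod, which encodes fibromodulin, was at 0.538 FPKM in neural tube and 8.28 FPKM in pancreas. The median difference of the 14 genes was -0.67. Several of these genes lie in tandem. Kera and Epyc, which follow Lum on chromosome 10 and were picked after their values were seen, were listed at 0 in neural tube and at 0.209 and 0.148 FPKM in pancreas. Dcn and Lum, on the same stretch, were both called. On chromosome 13, Ecm2 and Omd, also picked afterwards, were at 0.204 and 0.203 FPKM in neural tube and 0.650 and 1.76 FPKM in pancreas, beside Aspn and Ogn. On chromosome 1, Optc and Prelp, likewise picked afterwards, were at 2.05 and 0.911 FPKM in neural tube and 0.322 and 2.95 FPKM in pancreas, beside Fmod.

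The 3 matrix glycoprotein genes spanned nearly the whole range of differences. Postn encodes periostin, a matricellular protein of collagen-rich tissue, and lies on chromosome 3 at 54165031 to 54194961. Postn was at 0.578 FPKM in neural tube and 78.0 FPKM in pancreas, a difference of -5.65, the largest after that of Dcn. Sparc encodes a collagen-binding glycoprotein, also called osteonectin, and lies on chromosome 11 at 55208002 to 55233582. Sparc was at 20.3 FPKM in neural tube and 428 FPKM in pancreas, a difference of -4.33. It was the most abundant marker in each sample, at percentile 83.6 of all genes in neural tube and 99.0 in pancreas. Fbln1 encodes fibulin-1, a glycoprotein of basement membranes and elastic fibres, and lies on chromosome 15 at 85036379 to 85116965. Fbln1 was at 18.2 FPKM in neural tube and 24.5 FPKM in pancreas, a difference of -0.40. It was the only marker with values similar in both samples, that is 5 FPKM or more in each and within 2 times of each other. Of all 7037 genes that reached 5 FPKM in each sample, 68.4% were similar, so this is the usual state of such genes. With equal totals the Fbln1 difference was 0.20. The level of Sparc was 1.11 times that of Fbln1 in neural tube and 17.5 times in pancreas.

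**Figure D2:**
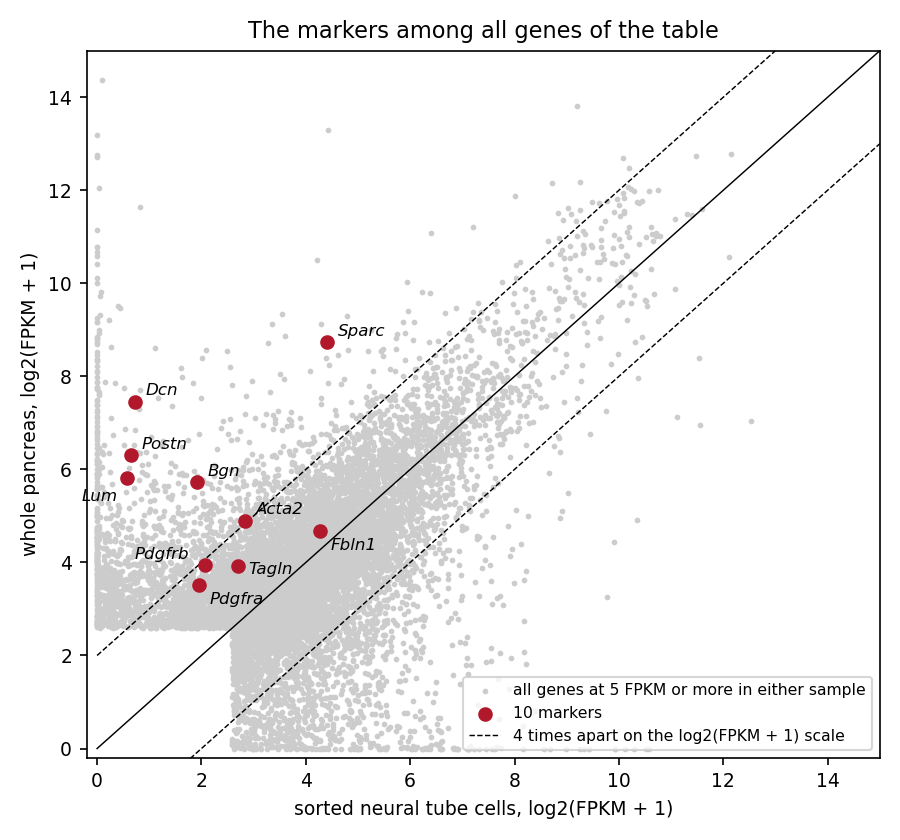
Level in sorted neural tube cells (x axis) against level in whole pancreas (y axis), both as log2(FPKM + 1), for 10744 genes that reached 5 FPKM in at least 1 sample (grey) and the 10 markers (red). Dashed lines mark 4 times on this scale. Dcn, Postn, Lum, Bgn and Sparc lie well above the upper dashed line, Acta2 lies on it, and Fbln1 lies near the diagonal.

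Genes related to the matrix glycoproteins also ranged from large differences to similar values. Of 16 fibulin, fibrillin and elastic fibre genes, 0 met the rule toward neural tube and 4 toward pancreas. Over the whole list the median difference was -1.45. Eln, which encodes elastin, was at 0.823 FPKM in neural tube and 67.7 FPKM in pancreas, and Fbln2 was at 3.36 FPKM in neural tube and 32.2 FPKM in pancreas. The microfibril genes Mfap2 and Mfap4, picked after their values were seen, were similar. They were at 54.3 and 29.0 FPKM in neural tube and 61.2 and 43.8 FPKM in pancreas. Mfap2, Mfap4 and Fbln1 lay between 18.2 and 54.3 FPKM in the sorted cells. Other microfibril genes of the list, Fbn1 and Mfap5, were called higher in pancreas. Fbn1 was at 1.89 FPKM in neural tube and 19.1 FPKM in pancreas. Mfap5 was listed at 0 in neural tube and at 6.75 FPKM in pancreas. Of 18 SPARC family and matricellular genes, 1 met the rule toward neural tube and 4 toward pancreas. The median difference was -1.08. Sparcl1, the closest relative of Sparc, was at 4.89 FPKM in neural tube and 97.9 FPKM in pancreas, and Smoc2 was at 0.302 FPKM in neural tube and 31.6 FPKM in pancreas. The call toward neural tube was Spock1, a proteoglycan gene of the same family that is expressed in brain, at 16.7 FPKM in neural tube and 0.755 FPKM in pancreas. Spock2 and Spock3, picked after their values were seen, were also higher in neural tube but not called. They were at 21.4 and 6.70 FPKM in neural tube and 5.355 and 1.78 FPKM in pancreas. Smoc1, also picked afterwards, was similar at 22.8 FPKM in neural tube and 29.5 FPKM in pancreas.

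Of 18 genes for collagen fibrils and their processing, 0 met the rule toward neural tube and 11 toward pancreas. This list's median difference was -2.38. Col3a1 was at 11.2 FPKM in neural tube and 469 FPKM in pancreas, and Col6a1 was at 0.633 FPKM in neural tube and 90.9 FPKM in pancreas. Col1a1, the main chain of fibrillar collagen, was at 10.9 FPKM in neural tube and 244 FPKM in pancreas. Lox, the enzyme that crosslinks collagen and elastin, was at 0.282 FPKM in neural tube and 27.7 FPKM in pancreas. The fibrillar chains Col1a1, Col1a2 and Col3a1, set apart after their values were seen, stood above 10 FPKM in the sorted cells. Col5a1 and Col5a2, other fibrillar chains of the list, were at 4.39 and 7.61 FPKM there. Dcn, Lum and Postn, the lowest of the markers in these cells, were below 1 FPKM. Bmp1, which trims procollagen and was picked after its values were seen, was similar. It was at 18.5 FPKM in neural tube and 26.1 FPKM in pancreas.

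The PDGF receptor genes were lower in neural tube, but short of the rule. Pdgfra encodes the alpha receptor of mesenchymal progenitors and lies on chromosome 5 at 75548316 to 75594229. Pdgfra was at 2.89 FPKM in neural tube and 10.4 FPKM in pancreas, a difference of -1.55. Pdgfrb encodes the beta receptor, needed for pericyte recruitment, and lies on chromosome 18 at 61204804 to 61244715. Pdgfrb was at 3.19 FPKM in neural tube and 14.3 FPKM in pancreas, a difference of -1.87. That lay just outside the rule, and Pdgfrb was called higher in pancreas with a pseudocount of 0.1 FPKM, at -2.13, and with upper quartile scaling, at -2.10. The receptors stood close to each other in both samples, Pdgfra being 0.907 times Pdgfrb in neural tube and 0.726 times in pancreas.

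Of 7 genes for PDGF ligands and related receptor kinases, 0 met the rule toward neural tube and 1 toward pancreas. Over the whole list the median difference was -1.63. Pdgfa, the main ligand of the alpha receptor, was at 5.44 FPKM in neural tube and 19.0 FPKM in pancreas. Kit and Csf1r encode receptors of the same class and lie next to Pdgfra and Pdgfrb in the genome. Kit was at 31.6 FPKM in neural tube and 12.9 FPKM in pancreas, opposite in direction to its neighbour Pdgfra. Csf1r, the macrophage growth factor receptor, was the call, at 0.362 FPKM in neural tube and 9.49 FPKM in pancreas.

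The contractile genes lay on either side of the rule. Acta2 encodes smooth muscle alpha actin and lies on chromosome 19 at 34315580 to 34329826. Acta2 was at 6.17 FPKM in neural tube and 28.8 FPKM in pancreas, a difference of -2.06, just inside the rule. Of the 10744 genes, 11.4% had a difference as low or lower. The Acta2 call was lost with a pseudocount of 5 FPKM, at -1.60, with equal totals, at -1.48, and with equal totals without the 50 highest genes of each sample, at -1.72. Tagln encodes transgelin, an actin-binding protein also called SM22 alpha, and lies on chromosome 9 at 45737711 to 45744141. Tagln was at 5.46 FPKM in neural tube and 14.3 FPKM in pancreas, a difference of -1.24 that was not called. The annotated Tagln gene overlaps Pcsk7 on the other strand, and fragments of the overlap cannot be told apart where counting ignores strand. The level of Acta2 was 1.13 times that of Tagln in neural tube and 2.02 times in pancreas.

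Relatives of the contractile genes went in both directions. Of 7 other actins and transgelins 1 met the rule toward neural tube and 1 toward pancreas. The median difference was 1.01. Tagln2 was at 8.01 FPKM in neural tube and 123 FPKM in pancreas, whereas Tagln3, a neuronal member of the family, was at 236 FPKM in neural tube and 1.42 FPKM in pancreas. The 3 transgelins thus differed in 2 directions, with Tagln between the others. The muscle actin genes Acta1 and Actc1, picked after their values were seen, were at 9.42 and 13.5 FPKM in neural tube and 2.26 and 3.14 FPKM in pancreas, and neither was called. Actb and Actg1, the most abundant genes of this list and likewise picked, were at 1484 and 1634 FPKM in neural tube. In pancreas they were at 734 and 878 FPKM, and neither was called. The enteric smooth muscle actin gene Actg2, also picked afterwards, was at 0.690 FPKM in neural tube and 3.96 FPKM in pancreas, the same direction as Acta2. Actin genes resemble each other in coding sequence, and how well fragments were assigned among them was not tested. Of 16 smooth muscle contractile genes 0 met the rule toward neural tube and 3 toward pancreas. This list's median difference was -1.02. Myl9, a myosin light chain gene, was at 7.65 FPKM in neural tube and 49.4 FPKM in pancreas, and Des, which encodes desmin, was at 4.31 FPKM in neural tube and 22.6 FPKM in pancreas. Ptrf, which encodes the caveolar protein cavin-1, was at 1.10 FPKM in neural tube and 47.2 FPKM in pancreas. Other genes of this list were picked after their values were seen. Smtn was at 7.01 FPKM in neural tube and 7.60 FPKM in pancreas, and Cald1 at 9.67 FPKM in neural tube and 24.2 FPKM in pancreas. Both were at 5 FPKM or more in each tissue. Myh11 was at 0.0884 FPKM in neural tube and 0.890 FPKM in pancreas, and Cnn1 was at 0.287 FPKM in neural tube and 0.453 FPKM in pancreas.

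Of 14 pericyte markers other than Pdgfrb, 1 met the rule toward neural tube and 6 toward pancreas, and those 6 reached 5 FPKM in pancreas alone. Over the whole list the median difference was -1.41. Kcnj8 and Abcc9, subunits of a potassium channel of pericytes, were at 0.119 and 0.121 FPKM in neural tube and 14.7 and 7.61 FPKM in pancreas. Rgs5, a signalling regulator often used as a pericyte marker, was at 0.321 FPKM in neural tube and 10.6 FPKM in pancreas. Anpep and Vtn were at 0.613 and 1.80 FPKM in neural tube and 73.7 and 66.1 FPKM in pancreas, and both are also expressed outside pericytes. The call toward neural tube was Notch3, a receptor of mural cells that neural progenitors also express, at 29.2 FPKM in neural tube and 4.52 FPKM in pancreas. Foxc1 and Foxd1, picked after their values were seen, were also higher in neural tube, though below 5 FPKM there and so not called. They were at 3.73 and 4.42 FPKM in neural tube and 0.277 and 0.0296 FPKM in pancreas.

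Mesenchyme transcription factors and surface genes were also mixed. Of 16 transcription factor genes, 1 met the rule toward neural tube and 4 toward pancreas. The median difference was -0.20. Tcf21 and Barx1, factors of visceral mesenchyme, were at 0.553 and 0.327 FPKM in neural tube and 14.5 and 9.48 FPKM in pancreas. Osr1 and Prrx1 were at 0.978 and 1.39 FPKM in neural tube and 11.6 and 10.9 FPKM in pancreas. Twist1, a mesenchyme and neural crest factor, was the call toward neural tube, at 15.8 FPKM in neural tube and 1.39 FPKM in pancreas. Of 21 fibroblast surface and other mesenchyme genes 1 met the rule toward neural tube and 10 toward pancreas. This list's median difference was -1.996. S100a6 was at 2.86 FPKM in neural tube and 108 FPKM in pancreas, and S100a4 was listed at 0 in neural tube and at 13.5 FPKM in pancreas. Pdpn, which encodes podoplanin, was the call toward neural tube, at 37.6 FPKM in neural tube and 6.66 FPKM in pancreas. Vim, the intermediate filament of mesenchyme and of neural progenitors alike, was picked after its values were seen. It was similar at 477 FPKM in neural tube and 273 FPKM in pancreas.

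**Figure D3:**
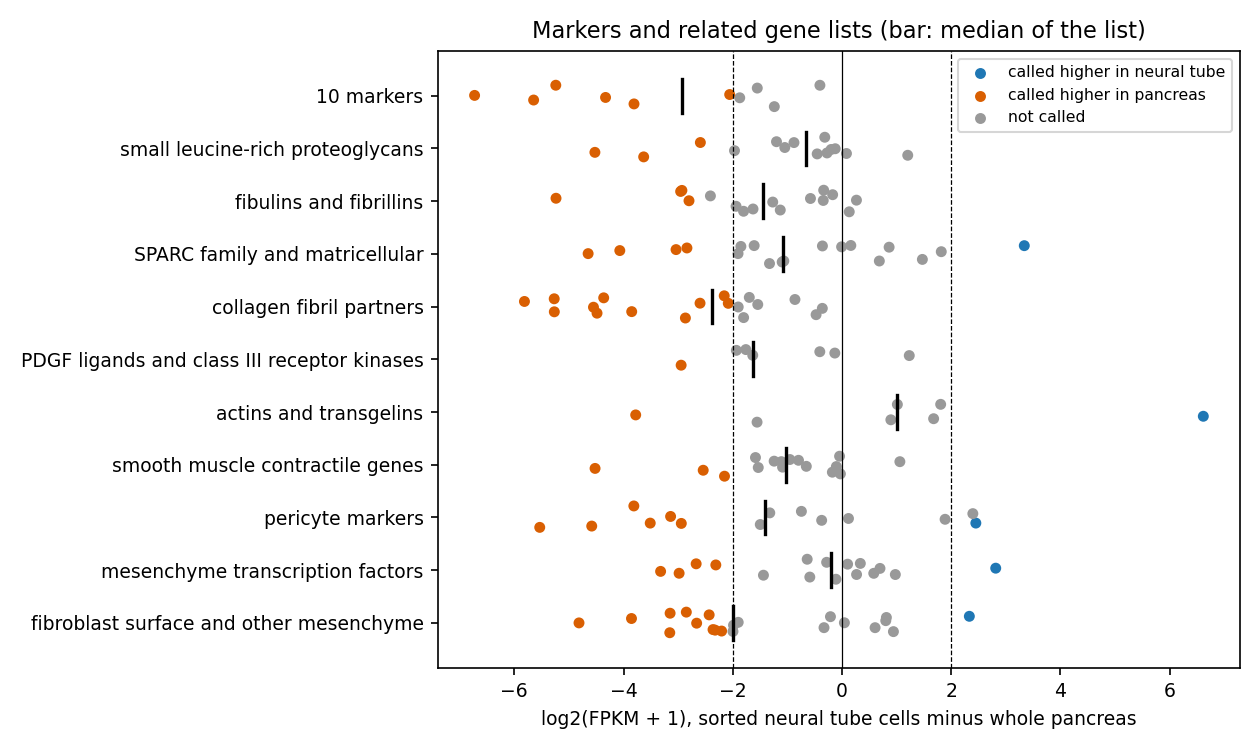
Difference in log2(FPKM + 1), sorted neural tube cells minus whole pancreas, for each gene of the marker list and of the 10 related lists, with black bars for the medians and dashed lines at -2 and 2. The median is -2.93 for the 10 markers and lies between -2.38 and 1.01 for the related lists, and points right of 2 that stay grey are below 5 FPKM in neural tube.

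Taking the 10 related lists as a whole, 5 of 147 genes were called toward neural tube and 47 toward pancreas, against 4.76% and 5.5% of all 23228 genes of the table. These lists were chosen with earlier results known, and 91 of the 147 genes reached 5 FPKM in at least 1 sample. In whole pancreas all 10 markers were at 5 FPKM or more, and which cells their RNA came from was not tested. In the sorted neural tube cells Dcn, Lum and Postn were below 1 FPKM, Bgn, Pdgfra and Pdgfrb between 2.79 and 3.19 FPKM, and Acta2, Tagln, Fbln1 and Sparc between 5.46 and 20.3 FPKM. Markers of other cells that whole pancreas holds were also lower in the sorted cells. Of 8 endothelial markers 5 were called higher in pancreas, with a summed level of 11.2 FPKM in neural tube and 97.5 FPKM in pancreas. Of 8 macrophage markers 6 were called, with 6.90 FPKM in neural tube and 237 FPKM in pancreas. Of 5 erythroid markers 4 were called, with 610 FPKM in neural tube and 15870 FPKM in pancreas. The globin gene Hba-a1 alone gave 588 FPKM of this sum in neural tube and 14320 FPKM in pancreas. Of 5 mesothelial markers 4 were called, with 2.56 FPKM in neural tube and 105 FPKM in pancreas. Of these sums the keratin gene Krt19 gave 1.03 FPKM in neural tube and 49.7 FPKM in pancreas. Which cells of whole pancreas express Krt19 was not tested. None of these 26 markers was listed at 0 in either sample. The part of these cells in the marker differences was not tested.

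**Figure D4:**
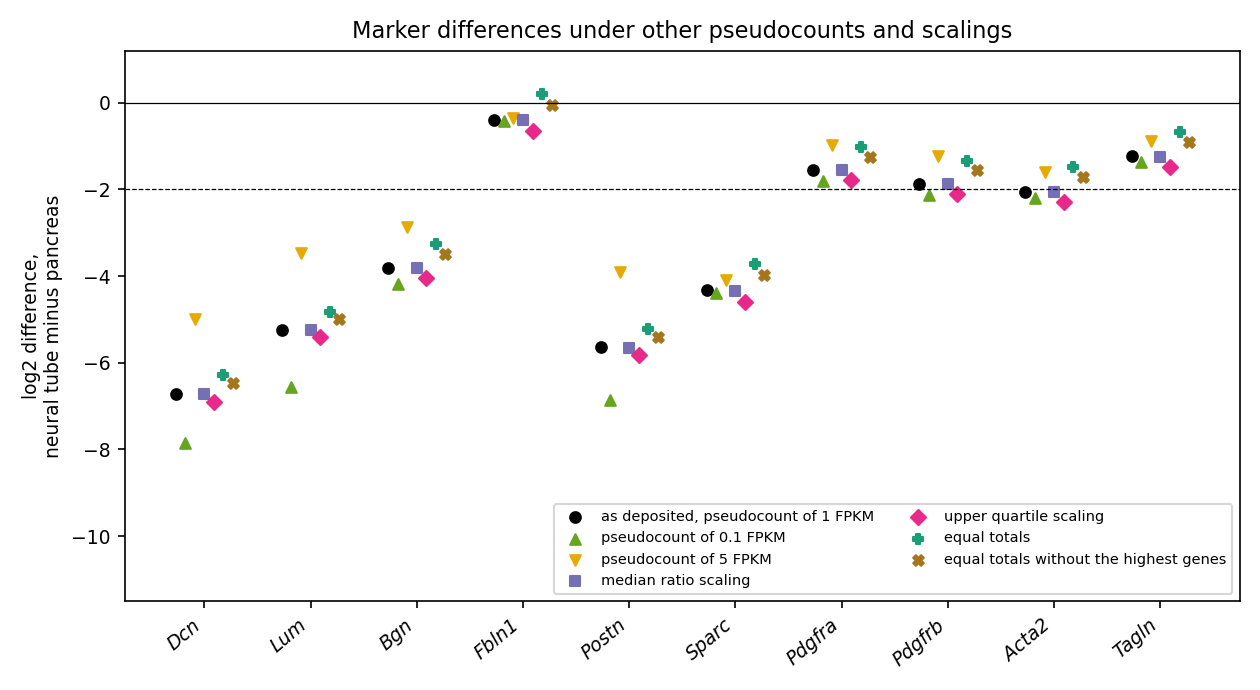
Difference of each marker in log2, sorted neural tube cells minus whole pancreas, as deposited and under 2 other pseudocounts and 4 rescalings of the samples, with the dashed line at -2. Dcn, Lum, Bgn, Postn and Sparc stay below -2 in all 7 versions, Pdgfrb and Acta2 cross the line, and Fbln1 lies on either side of 0.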

How the data were processed

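Of the 18 samples of the series, the 2 RNA samples are used, and the 16 chromatin samples are not analysed here. The authors deposited FPKM values, 1 per gene and tissue, although the labels name 2 libraries for each. Each column was therefore read as the authors' pooled value. Per the submitters' processing notes, TopHat, TopHat2 2.0.4, Cuffdiff 2.0.2 and CASAVA were used with build mm9, with no role or order given, while no source used here gives the annotation or filters. RNA came from a column kit for sorted cells and from Trizol for pancreas, with an Illumina mRNA-seq preparation named for both and a TruSeq mRNA preparation for pancreas, per the labels' protocols.

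Gene coordinates and transcript lengths come from GENCODE M1 on NCBIM37, which held 21662 of the 23228 symbols as a single gene. The pseudocount was 1 FPKM. Alternatives were other pseudocounts, minimum levels, sizes of difference and scalings. Depth was read from the commonest low step of length-multiplied FPKM among genes with 1 transcript and is approximate, so no interval per gene is given. Genes named were the 10 markers, the check genes, and called or leading genes of each related list, with others said to be picked afterwards. The members and lists were chosen with earlier results of these data known. Python 3.11.15, numpy 2.4.6 and pandas 2.3.3 were used.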

Additional observations from a re-analysis of the deposited data

How the results depend on the processing

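Under the 2 other pseudocounts and 4 rescalings, Dcn, Lum, Bgn, Postn and Sparc were called higher in pancreas each time, and Fbln1, Pdgfra and Tagln were not called. The Dcn difference ran from -7.85 to -4.99 and that of Sparc from -4.59 to -3.72. Over all 10 alternatives 0 of the 10 markers were called toward neural tube and between 5 and 9 toward pancreas, with 9 at 2 times and 5 at 8 times. The other minimum levels could not change the marker calls, because every marker was at 10.4 FPKM or more in pancreas and lower in neural tube. Median ratio scaling, with a factor of 0.997, hardly changed the values. The median difference of the markers was -3.19 and -2.24 with pseudocounts of 0.1 and 5 FPKM. It was -2.94 with median ratio scaling, -3.17 with upper quartile scaling, -2.37 with equal totals and -2.61 with equal totals without the 50 highest genes of each sample. These rescalings, except the median ratio, moved the median over all genes that reached 5 FPKM to -0.30, 0.66 and 0.39.

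Over the related lists, the number of genes called toward neural tube was 1 with a pseudocount of 5 FPKM, 12 at 2 times, 2 at 8 times, 9 with equal totals and 8 without the highest genes. Toward pancreas it was 23 with that pseudocount and 25 at 8 times. Of 200 counts of single lists under the alternatives, 162 were within 1.5 times of the count reported. Counts of 0 that stayed at 0 are included in the 162, so that number overstates how stable the calls were. Over all genes the calls toward neural tube and pancreas, 1106 and 1278 as deposited, were 512 and 600 with a pseudocount of 5 FPKM, 2494 and 2690 at 2 times, 546 and 653 at 8 times, and 1772 and 882 with equal totals. No paired analysis was possible because each tissue has 1 value per gene. Values below about 0.127 FPKM in neural tube and 0.0711 FPKM in pancreas rest on fewer than 3 fragments of a 1 kb transcript.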

Other observations

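Outside the marker list, 18 protein-coding genes of the table were nearest to a marker on either side, and 10 of them reached 5 FPKM in at least 1 sample. Of the 18, 0 were called toward neural tube and 1 toward pancreas, Csf1r beside Pdgfrb, against 4.76% and 5.5% of all 23228 genes, so the count is near that of genes at large. Atox1 beside Sparc was at 88.4 FPKM in neural tube and 175 FPKM in pancreas, and Atxn10 beside Fbln1 was at 85.0 FPKM in neural tube and 90.4 FPKM in pancreas. These neighbours were picked by position after the marker values were seen.

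Neural crest and Schwann cell markers went in both directions. Of 6 such genes 1 met the rule toward neural tube and 1 toward pancreas. Over the whole list the median difference was -0.07. Ngfr, a neurotrophin receptor, was at 13.2 FPKM in neural tube and 2.55 FPKM in pancreas. Erbb3, a neuregulin receptor of Schwann cells that some epithelia also express, was at 0.762 FPKM in neural tube and 7.07 FPKM in pancreas. Foxd1, a factor of pericyte progenitors that was picked afterwards, stood at 4.42 FPKM in neural tube and 0.0296 FPKM in pancreas, below the minimum for a call.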
